A study of Homo sapiens with 12 samples.

Results

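Line II, or shCXCR4 (II), is a stable CXCR4 knockdown line made from IGROV-1, a line of human ovarian cancer cells, and is set here against scrambled Mock cells. The comparison took the 3 arrays titled for line II and the 3 titled for Mock, which are 6 of the 12 arrays of the study. It covered every gene with a probe set annotated to 1 gene symbol, 19775 genes in all, each represented by the probe set that was brightest on average across all 12 arrays. Line II carries a short hairpin RNA (shRNA) against CXCR4 and grew from a selected individual clone. The other knockdown line, line I, was made in the same way, and the labels name 2 hairpin sequences without saying which line carries which. Mock cells received a plasmid with a scrambled RNA and were kept as a pool of clones. Both knockdown lines and Mock were transfected with Lipofectamine and held in 4 µg/ml puromycin for 30 days, while Parental cells were neither transfected nor selected. Each group has 3 Affymetrix Human Genome U133 Plus 2.0 arrays, hybridised from 6 µg of total RNA each. Knockdown, clonal origin and the hairpin's own effects change together between line II and Mock and cannot be told apart. The labels do not say whether the 3 arrays of a group came from separate cultures, so p-values measure the spread between arrays, which may be technical, and the number of arrays limits the precision.

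CXCR4 is a G protein coupled receptor for the chemokine CXCL12. Ligand binding acts through inhibitory G proteins on ERK and AKT signalling and on the cytoskeleton, and the receptor is best known for directing cell migration. In ovarian cancer the receptor and its ligand have been studied in growth within the peritoneal cavity, where CXCL12 is present.

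The array medians lay between 4.31 and 4.39 in line II and between 4.25 and 4.28 in Mock, on the log2 scale of the deposited values. The interquartile range was 3.19 to 3.31 in line II and 3.38 to 3.43 in Mock, so every line II array was less spread out than every Mock array. It was 3.26 to 3.30 in line I and 3.30 to 3.31 in Parental cells, so Mock had the widest spread of the 4 groups. Pearson correlations across probe sets were 0.9955 to 0.9970 within line II, 0.9961 to 0.9967 within Mock and 0.9898 to 0.9937 between a line II and a Mock array.

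CXCR4 mRNA was lower in line II on all 3 of its probe sets. The brightest probe set read 6.39, 6.73 and 6.75 in line II, against 8.51, 8.60 and 8.64 in Mock, a log2 fold change of -1.96 (SE 0.09, limma adjusted p = 4.38e-09) that leaves 25.7% of the Mock level. The other probe sets left 38.5% and 42.3%. Line II and Mock did not overlap on any of the 3 probe sets. CXCL12, the ligand, and ACKR3, the other receptor for it, changed by 0.15 (adjusted p = 0.244) and 0.13 (adjusted p = 0.241) and did not pass the test.

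Falls outnumbered rises in line II, and over all genes the share of falls was higher among the large changes. At a limma adjusted p under 0.05, 5168 genes differed from Mock, or 26.1% of those tested, with 2989 lower (15.1%) and 2179 higher (11%). Of these, 152 (0.769%) changed at least 2-fold, with 115 lower (0.582%) and 37 higher (0.187%). Lower genes thus made up 57.8% of all calls and 75.7% of the 2-fold calls. The share was 70.6% at a minimum of 1.5-fold, 78.9% at 3-fold and 81.5% at 4-fold, where 22 genes fell and 5 rose. At 8-fold, 7 genes fell and 0 rose. Line I against the same Mock arrays also had 57.8% lower among all calls, with 2698 lower and 1972 higher. The excess of falls over all calls was therefore not particular to line II. At 2-fold, line I had 80 lower and 71 higher. The genes with every line II array below every Mock array numbered 3907 (19.8% of all genes), and those with every line II array above numbered 3295 (16.7%); all 115 large falls were without overlap.

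**Figure D1:**
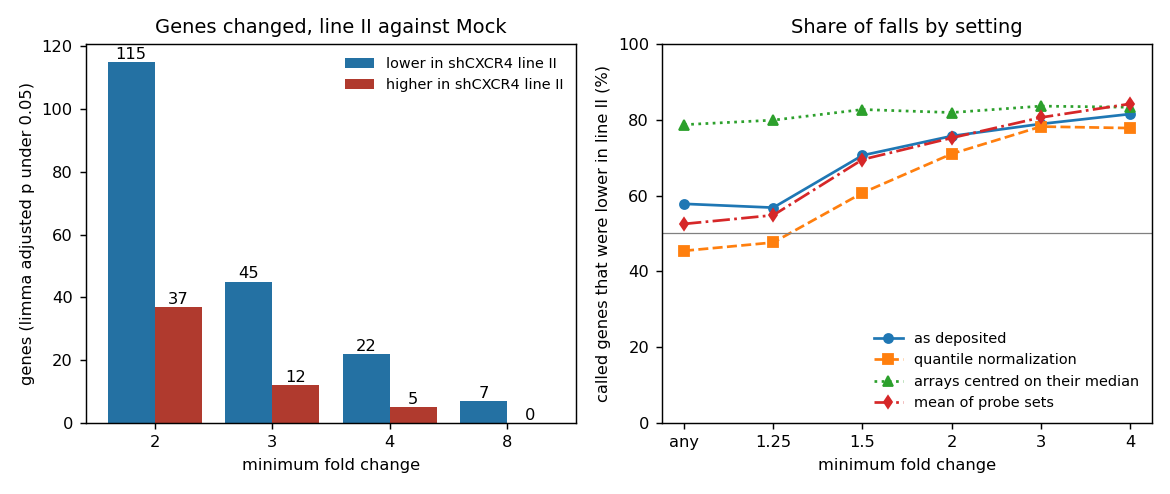
Left, number of genes lower and higher in line II than in Mock at a limma adjusted p under 0.05, by minimum fold change from 2-fold up on the x axis. Right, the share of called genes that were lower, in percent, with the deposited values, after quantile normalization, with each array centred on its median, and after averaging all probe sets of each gene. The 115 falls and 37 rises at 2-fold give 75.7% with the deposited values, and the share is 71.0%, 81.9% and 75.2% at 2-fold under the other settings in that order.

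The balance of the small changes depended on the scaling, and falls stayed ahead among the large ones. After quantile normalization, falls made up 45.4% of all calls (1872 lower, 2255 higher), and with arrays centred on their medians 78.7% (4259 lower, 1150 higher). At 2-fold the same scalings gave 71.0% (103 lower, 42 higher) and 81.9% (136 lower, 30 higher), and at 4-fold 21 falls with 6 rises and 25 falls with 5 rises. The median fold change over all genes was 0.018 with the deposited values, 0.019 with quantile normalization and -0.060 with centring. Averaging a gene's probe sets left 76 falls and 25 rises at 2-fold. Of the 115 large falls, 43 rest on a single probe set, and of the other 72, 27 had every further probe set lower past the test, 31 some and 14 none, with another probe set higher past the test in 5.

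Among large changes, the ratio of falls to rises was higher at lower signal. Genes were split into 4 level bins of equal size by mean log2 value over the 12 arrays, with boundaries at 3.69, 5.35 and 7.48. In the lowest bin 104 genes fell and 415 rose, with 11 and 2 of them at least 2-fold. In the next bin 235 fell and 839 rose, with 30 and 5 at least 2-fold. The third bin had 1152 falls and 570 rises, with 50 and 17 at least 2-fold. The highest bin had 1498 falls and 355 rises, with 24 and 13 at least 2-fold. Small changes therefore ran upward among dim genes and downward among bright ones, with median fold changes of 0.08, 0.10, -0.05 and -0.10 from the lowest bin to the highest, while large falls outnumbered large rises in all 4 bins. Among the 8348 genes with a mean of at least 6, the share of falls went down with size instead, from 77.3% of all calls to 73.3% at 1.5-fold, 66.7% at 2-fold (52 falls and 26 rises) and 33.3% at 4-fold (2 falls and 4 rises). In the brighter 50% of genes it was 72.9% of all calls, 71.2% at 2-fold and 61.5% at 4-fold. The difference in spread between the line II and Mock arrays, with Mock the widest group, moves with the small changes. Its part in them was not tested.

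**Figure D2:**
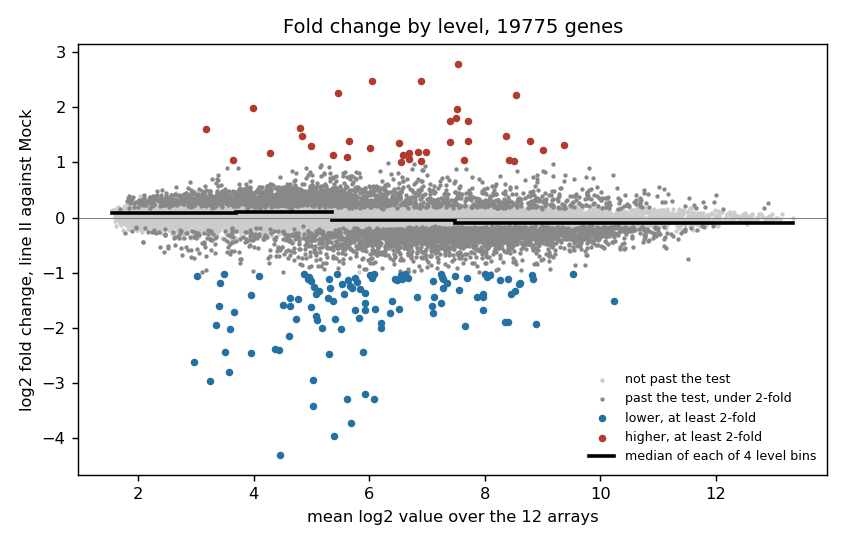
Log2 fold change of line II against Mock (y axis) by mean log2 value over the 12 arrays (x axis), 1 point per gene, with genes changed at least 2-fold in colour and the median of each of 4 level bins as a black line. The largest falls lie at low and middle levels, among them DACH1 at -4.31 and GJA1 at -3.96, and no rise reaches 3.

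The large falls were mostly genes that read above the array medians in Mock. Their median level was 4.93 in line II, 5.44 in line I, 6.69 in Mock and 6.35 in Parental cells. In 33 of the 115 the line II mean lay below the lowest array median, 4.25, where the Mock mean lay below it in 4. For such genes the fold change describes the deposited values and may not give the size of the change in RNA. The Parental mean lay between the line II and Mock means for 80 genes, above both for 31 and below both for 4. Against Parental cells the median difference of these genes was -0.99 in line II and 0.39 in Mock; these differences share the Parental arrays. The 37 large rises had median levels of 7.05 in line II, 7.31 in line I, 5.76 in Mock and 6.90 in Parental cells, and median differences from Parental cells of 0.43 in line II and -0.87 in Mock. Most of the rises thus stood nearer to Parental cells in line II than in Mock, as 22 of 37 did by mean, where 38 of the 115 falls did. These are descriptions of genes chosen for their difference between line II and Mock and carry no test. Other comparisons at the same threshold had 122 falls and 23 rises for line II against Parental, 80 falls and 71 rises for line I against Mock, and 67 falls and 36 rises for Mock against Parental; they share arrays with each other.

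Developmental transcription regulators held the deepest fall. DACH1, a SKI-family transcriptional repressor of eye and organ development, read 2.78, 2.68 and 2.63 in line II, against 7.04, 6.99 and 7.0 in Mock, a log2 fold change of -4.31 (SE 0.08, adjusted p = 3.01e-12). All 3 line II arrays lay below the array medians, and Parental cells averaged 5.50. TOX3, an HMG-box nuclear protein, read 4.77, 5.13 and 4.87 in line II, against 8.17, 8.26 and 8.18 in Mock, a change of -3.28 (adjusted p = 2.64e-11). SOX9, an HMG-box factor of ductal and cartilage lineages, read 4.09, 4.05 and 4.29 in line II, against 6.49, 6.65 and 6.69 in Mock, a change of -2.47 (adjusted p = 1.92e-10). None of these 3 genes overlapped between line II and Mock. EYA4, a transcriptional coactivator with phosphatase activity, changed by -2.46 (adjusted p = 1.21e-07), but by -1.01 as the mean of its probe sets. TCF7L1, a TCF factor that represses Wnt targets, changed by -2.45 (adjusted p = 5.63e-10) and IRX3, a homeobox factor chosen after its values were seen, by -2.00 (adjusted p = 9.34e-09). Over the list of 39 measured developmental transcription factors, 12 fell and 7 rose, beside 15.1% and 11% of all genes. Of the falls 5 were at least 2-fold, and the list median was 0.05 beside 0.02 over all genes. The rises were smaller, led by SOX12 at 0.85 and TBX2 at 0.79, which came to 0.51 each as the mean of their probe sets.

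Gap junction and membrane genes changed in both directions. GJA1, the connexin 43 gene of gap junctions, read 3.09, 3.30 and 3.37 in line II, against 7.24, 7.33 and 7.08 in Mock, a change of -3.96 (SE 0.09, adjusted p = 6.32e-12). The line II arrays lay below and the Mock arrays above their array medians, and Parental cells averaged 8.11. NOSTRIN, an adaptor that carries endothelial nitric oxide synthase away from the membrane, read 2.72, 2.76 and 2.71 in line II, against 5.53, 5.58 and 5.45 in Mock (-2.79, adjusted p = 5.63e-10), with 3.08 in Parental cells. The caveolins CAV2 and CAV1, scaffold proteins of caveolae, moved in opposite directions. CAV2 read 8.84, 8.84 and 9.19 in line II, against 7.51, 7.63 and 7.58 in Mock (1.38, adjusted p = 1.58e-07). CAV1 read 5.73, 5.65 and 5.62 in line II, against 6.36, 6.28 and 6.35 in Mock (-0.66, adjusted p = 1.76e-05). The list of connexins, pannexins, caveolins and cavins has 18 measured genes and also holds NOSTRIN. Of these 18, 5 fell, NOSTRIN among them, and 2 rose, beside 15.1% and 11% of all genes. In the brighter 50% of genes, which holds 10 of the 18, 26.8% fell.

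KCTD12, EEF1A2 and BASP1, each best known from neurons, were among the deepest falls. KCTD12, an auxiliary subunit of GABA-B receptors, read 2.69, 2.97 and 2.74 in line II, against 6.29, 6.10 and 6.25 in Mock (-3.41, SE 0.08, adjusted p = 1.38e-11). EEF1A2, the translation elongation factor isoform of neurons and muscle, read 4.81, 4.59 and 4.71 in line II, against 7.87, 8.11 and 8.0 in Mock (-3.29, adjusted p = 1.36e-08). BASP1, a protein of growth cone membranes, read 3.67, 3.62 and 3.68 in line II, against 6.37, 6.58 and 6.84 in Mock (-2.94, adjusted p = 3.48e-10). No line II array reached a Mock array for these genes. BASP1 changed by -1.40 as the mean of its probe sets. EEF1A1, the ubiquitous isoform, changed by 0.06, and it was chosen after its values were seen. NCALD, a neuronal calcium sensor, changed by -3.20 (adjusted p = 9.63e-09), but by -0.23 (adjusted p = 0.0586) without probe sets ending in _x_at or _s_at, so its fall rests on 1 kind of probe set. Over a list of 30 measured neural membrane genes, which does not hold KCTD12, 5 fell, 4 of them at least 2-fold, and 2 rose, with a median of 0.07. The share that fell is near the 15.1% of all genes.

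THSD7A, a membrane protein with thrombospondin repeats, read 3.90, 3.42 and 3.70 in line II, against 7.27, 7.42 and 7.51 in Mock (-3.73, SE 0.13, adjusted p = 3.63e-10). LRCH2 changed by -2.96, SAGE1, a cancer-testis antigen, by -2.62 and CRISPLD1 by -2.43, all without overlap of line II and Mock. Parental cells lay near line II for LRCH2 (2.42) and SAGE1 (2.63) and near neither for CRISPLD1 (5.45), which averaged highest there. Of the 15 deepest falls, 11 had a line II mean below 4.25. Among further large falls, chosen after their values were seen, were DCLK1, a microtubule-associated kinase, at -1.89 (adjusted p = 1.76e-09), TGM2, a transglutaminase, at -1.90 (adjusted p = 3.73e-08), and GHR, the growth hormone receptor, at -1.95 (adjusted p = 1.54e-07). TGM2 was bright in all groups, with 7.34, 7.25 and 7.43 in line II, against 8.97, 9.27 and 9.48 in Mock.

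**Figure D3:**
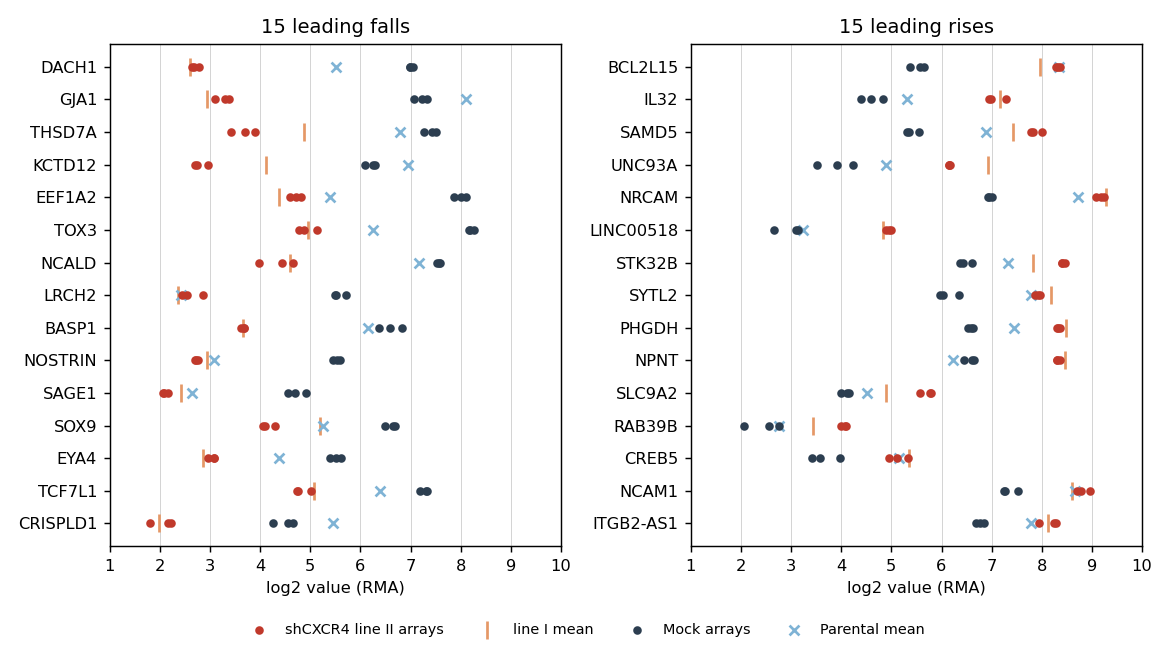
Log2 values on each of the 3 arrays of line II and of Mock (points), with the means of line I (bars) and Parental cells (crosses), for the 15 genes with the largest falls and the 15 with the largest rises in line II against Mock. Line II and Mock points are apart for every gene shown, as the choice requires, while the Parental means lie at either end or between, as for NOSTRIN (3.08 in Parental) and GJA1 (8.11).

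Receptors for interleukins stood among the large falls. IL1R1, the signalling receptor for interleukin 1, read 4.97, 5.16 and 4.98 in line II, against 7.01, 6.91 and 6.94 in Mock (-1.92, SE 0.09, adjusted p = 7.15e-09). IL1R2, its decoy receptor, read 4.24, 4.48 and 4.43 in line II, against 6.41, 6.34 and 6.41 in Mock (-2.01, SE 0.09, adjusted p = 7.28e-09). IL4R, the receptor chain for interleukins 4 and 13, read 6.66, 6.79 and 6.89 in line II, against 7.96, 8.08 and 8.17 in Mock (-1.29, SE 0.08, adjusted p = 8.75e-08). None of these overlapped between line II and Mock. As the mean of its probe sets IL1R1 changed by -1.20. IL1R1 and IL4R were also below line I, by -0.45 (adjusted p = 0.00742) and -0.63. IL6R, the receptor for interleukin 6, was higher by 0.68 (adjusted p = 6.76e-05), and IL6 itself changed by -0.69 (adjusted p = 0.000124). Of 88 measured genes named as interleukins, their receptors or their partners, 10 fell and 17 rose, beside 15.1% and 11% of all genes. Of the falls 3 were at least 2-fold. The balance turned with scaling, at 11 falls and 10 rises after quantile normalization and 11 falls and 6 rises after centring.

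The rises were led by BCL2L15, a member of the BCL2 family of apoptosis regulators. It read 8.36, 8.29 and 8.33 in line II, against 5.66, 5.57 and 5.38 in Mock, a log2 fold change of 2.79 (SE 0.07, adjusted p = 2.64e-11), and Parental cells averaged 8.34. Line II thus stood at the Parental level and Mock below it. SAMD5 read 7.78, 7.82 and 8.0 in line II, against 5.34, 5.30 and 5.55 in Mock (2.47, adjusted p = 3.63e-10). IL32, a pro-inflammatory cytokine, read 6.94, 6.99 and 7.29 in line II, against 4.59, 4.83 and 4.40 in Mock (2.47, adjusted p = 4.74e-09), with 5.31 in Parental cells. UNC93A read 6.17, 6.14 and 6.15 in line II, against 3.52, 3.91 and 4.23 in Mock (2.27, adjusted p = 1.16e-07). The groups did not overlap for any of these genes, and UNC93A changed by 1.45 as the mean of its probe sets. STK32B, a serine/threonine kinase, changed by 1.96 (adjusted p = 4.31e-10) and SYTL2, a Rab effector in vesicle trafficking, by 1.80 (adjusted p = 9.63e-09), with Parental means of 7.32 and 7.78. Of 18 BCL2 family genes, 3 rose and 3 fell, beside 11% and 15.1% of all genes. After quantile normalization 4 rose and 0 fell, and without each array in turn 0 to 2 fell, with 0 without Mock replicate 2.

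Adhesion molecules and integrin subunits were among the rises too. NRCAM, a neuronal cell adhesion molecule of the L1 family, read 9.24, 9.09 and 9.19 in line II, against 6.94, 6.92 and 7.01 in Mock (2.21, SE 0.06, adjusted p = 2.64e-11), and L1CAM itself went the other way, with 8.35, 8.35 and 8.72 in line II, against 9.19, 9.22 and 9.55 in Mock (-0.85, SE 0.11, adjusted p = 0.000112). NCAM1 rose by 1.47 (adjusted p = 5.67e-08), and by 0.75 as the mean of its probe sets. NPNT, the integrin ligand nephronectin, read 8.30, 8.31 and 8.37 in line II, against 6.61, 6.45 and 6.65 in Mock (1.75, adjusted p = 6.42e-10). ITGA5, a chain of the fibronectin receptor, changed by 1.05 (adjusted p = 1.9e-06) and ITGB8, an integrin beta chain, by 1.04 (adjusted p = 4.61e-07), while ITGA3, a laminin receptor chain, changed by -0.62 (adjusted p = 6.72e-05). As the mean of their probe sets ITGB8 changed by 0.54 and L1CAM by -0.56. Of 23 integrins, laminins and nephronectin, 4 rose and 9 fell, and of 23 other adhesion molecules, 5 rose and 5 fell. Of the matrix genes, the proteoglycan VCAN rose by 0.97, the microfibril protein MFAP2 by 0.96 and the fibrillin FBN1 by 0.89, and of 37 mesenchymal and matrix genes 7 rose and 6 fell. Of these 37, 3 rose without Mock replicate 2, and after centring 3 rose and 7 fell.

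Enzyme genes among the rises included PHGDH, which encodes the entry enzyme of serine synthesis. It read 8.37, 8.33 and 8.30 in line II, against 6.58, 6.52 and 6.63 in Mock (1.75, SE 0.06, adjusted p = 3.63e-10). ALDH1A3, a retinaldehyde dehydrogenase, read 6.45, 6.56 and 6.40 in line II, against 5.12, 5.14 and 4.99 in Mock (1.38, adjusted p = 1.8e-06). Its relative ALDH1A1 read 8.73, 8.68 and 8.84 in line II, against 9.58, 9.65 and 9.58 in Mock (-0.85, adjusted p = 1.3e-06). The aldehyde dehydrogenases ALDH1A3 and ALDH1A1 thus changed in opposite directions, each without overlap, and ALDH1A3 changed by 0.84 as the mean of its probe sets. Parental cells averaged 4.49 for ALDH1A3 and 10.90 for ALDH1A1. ASNS, asparagine synthetase, changed by 1.23 (adjusted p = 1.41e-08), but by 0.11 (adjusted p = 0.314) on its probe set not named _s_at. Of 25 serine, amino acid and unfolded protein stress genes, 7 rose, among them CHAC1 by 0.71, and 4 fell, among them DDIT4 by 0.58 and CEBPB by 0.48. Over all genes 11% rose and 15.1% fell. All 25 are in the brighter 50% of genes, where 9.36% rose and 26.8% fell. The count of falls is thus near or below the background.

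Fewer genes separated line II from line I than from Mock, and most of them were lower in line II. In that comparison 1413 genes (7.15%) passed the test, 922 lower in line II (4.66%) and 491 higher (2.48%). At least 2-fold apart were 39 genes (0.197%), 38 lower in line II (0.192%) and 1 higher (0.00506%). The count of 1413 was 770, 789 and 914 without line I replicates 1, 2 and 3 and 879 without line II replicate 2. SLPI, a secreted inhibitor of leukocyte proteases, was among the brightest, with 9.13, 9.24 and 9.35 in line II, a mean of 10.91 in line I, and 10.70, 10.80 and 10.78 in Mock. It differed by -1.67 from line I (adjusted p = 1.07e-08) and by -1.52 from Mock (adjusted p = 2.74e-09). EMP1, an epithelial membrane protein, differed by -1.38 from line I (adjusted p = 6.93e-08) and by -0.96 from Mock (adjusted p = 2.31e-07). PHLDA1 differed by -1.32 from line I (adjusted p = 1.01e-06) and by -1.19 from Mock (adjusted p = 4.16e-07). SLPI, EMP1 and PHLDA1 had their lowest mean in line II. As the mean of their probe sets EMP1 changed by -0.38 and PHLDA1 by -0.60 against Mock. SCEL, which encodes the cornified envelope protein sciellin, LEMD1 and KCNJ2, a potassium channel, differed from line I by -1.62, -1.69 and -1.17, and from Mock by -1.85, -0.79 and -1.17. The SCEL change against Mock was -0.93 as the mean of its probe sets.

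Another set of genes separated line II from line I while line II stood near Mock. CXCL8, the neutrophil chemokine interleukin 8, read 4.46, 4.36 and 4.42 in line II, averaged 6.04 in line I, and read 4.40, 4.50 and 4.43 in Mock, so that line II differed by -1.63 from line I (adjusted p = 8.01e-09) and by -0.03 from Mock (adjusted p = 0.736). CXCL1, a related chemokine, differed by -1.58 from line I (adjusted p = 7.01e-06) and by -0.30 from Mock (adjusted p = 0.0941). It passed as lower than Mock after centring (-0.38, limma adjusted p = 0.0413) and without line II replicate 3 (-0.42, limma adjusted p = 0.023). For CXCL8 the line II and Mock arrays overlapped, and both lay near the array medians and below the line I mean. PLAU, the urokinase plasminogen activator, read 7.39, 7.61 and 7.55 in line II, averaged 9.0 in line I, and read 7.57, 7.56 and 7.55 in Mock. MMP1, an interstitial collagenase, differed by -1.31 from line I (adjusted p = 3.07e-05) and by 0.05 from Mock (adjusted p = 0.807), and CCN3, a matricellular protein, by -1.24 (adjusted p = 7.11e-08) and 0.02 (adjusted p = 0.864). MMP1 was dim, with 3.00, 3.25 and 3.39 in line II, against 3.46, 3.15 and 2.89 in Mock, all below the array medians. It averaged 4.52 in line I and 4.95 in Parental cells. CXCL1, PLAU, MMP1 and CCN3 were chosen after their values were seen. Of 26 inflammatory cytokines and chemokines, 5 were lower and 0 higher in line II than in line I. Against Mock 3 fell and 2 rose, and 2 fell and 3 rose after quantile normalization. Of 32 urokinase system, metalloproteinase and cathepsin genes, 8 were lower and 0 higher than in line I. Against Mock 3 fell and 3 rose, and 2 fell and 6 rose after quantile normalization. Over all genes 4.66% were lower and 2.48% higher than in line I, and 15.1% fell and 11% rose against Mock.

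The gene at least 2-fold higher in line II than in line I was LPAR3, a lysophosphatidic acid receptor also chosen after its values were seen. It read 5.84, 5.51 and 5.61 in line II, averaged 4.58 in line I, and read 6.03, 6.04 and 5.74 in Mock, with a difference of 1.08 from line I (adjusted p = 2.11e-05). TOGARAM2 was higher by 0.92 than in line I (adjusted p = 2.5e-05) and by 0.91 than in Mock (adjusted p = 6.7e-06), and CKB, the brain creatine kinase, was 0.79 above line I and changed by -0.74 against Mock. PAQR5, a membrane progestin receptor chosen in the same way as LPAR3, was 0.47 above Mock (adjusted p = 0.00339) and differed by -1.04 from line I.

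**Figure D4:**
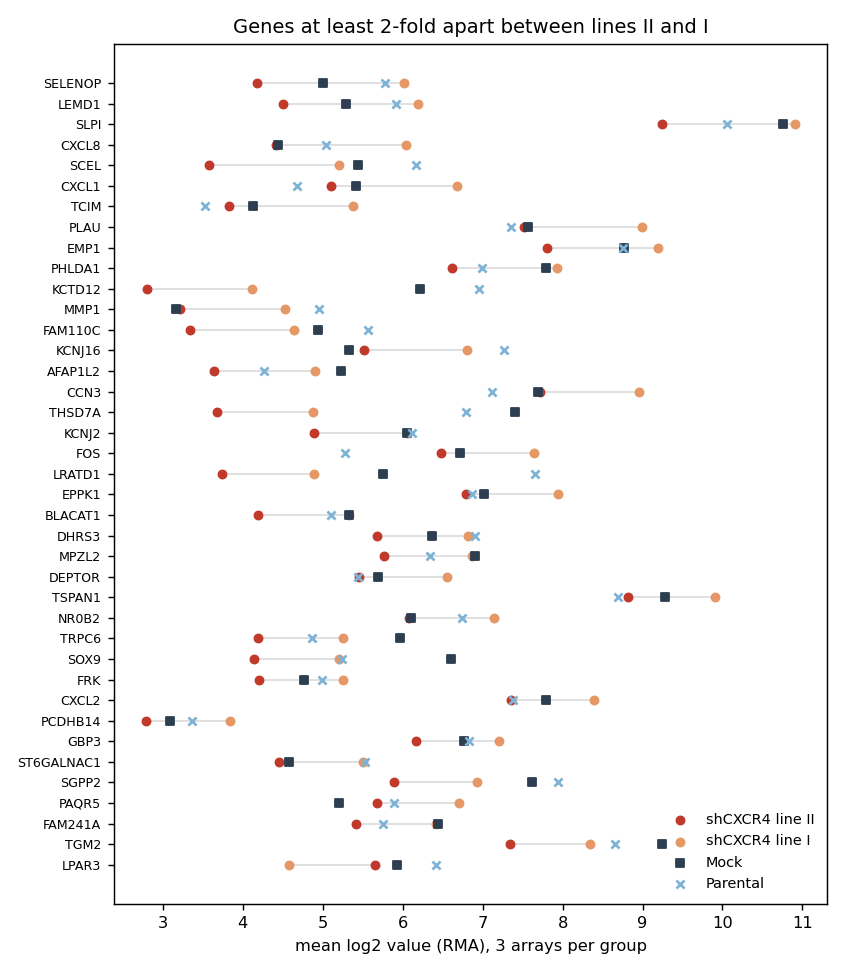
Mean log2 values (3 arrays per group) in line II, line I, Mock and Parental cells for the 39 genes at least 2-fold apart between lines II and I at a limma adjusted p under 0.05. All but LPAR3 are lower in line II, and for CXCL8, PLAU, MMP1 and CCN3 the line II and Mock means lie close together.

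Class I antigen presentation genes were lower in line II than in Mock as a list. These genes supply peptides to HLA class I molecules. The immunoproteasome cuts proteins, TAP1 and TAP2 carry the peptides into the endoplasmic reticulum, ERAP1 and ERAP2 trim them, and B2M is the light chain of the complex. Many of them are known targets of interferon and NF-kappaB factors. Of 16 measured genes, 12 fell and 0 rose, with a median of -0.27, beside 15.1% and 11% of all genes. Of these, 13 of the 16 are in the brighter 50% of genes, where 26.8% fell and 9.36% rose. The falls numbered 7 after quantile normalization and 13 after centring, with 0 rises in both, and 9 to 12 when each array was left out. Against line I, 11 of the 16 were lower and 0 higher, beside 4.66% and 2.48% of all genes.

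Promoter stretches of 4 class I genes are shown because both motifs searched occur among them. They are the 250 bases before the annotated start, on the gene's own strand, from RefSeq on GRCh38.p14, at chr6:32853705-32853954 (minus strand) for TAP1, chr6:32838740-32838989 (minus) for TAP2, chr6:31357180-31357429 (minus) for HLA-B and chr15:44711267-44711516 (plus) for B2M. Capitals mark matches on either strand to GAAA, any 2 bases and GAAA, the core of the interferon-stimulated response element (ISRE), or to GGG, any 2 bases, TT, any base and CC, a core of NF-kappaB sites. In TAP1 and in B2M 2 ISRE matches overlap and form 1 run of capitals.
TAP1: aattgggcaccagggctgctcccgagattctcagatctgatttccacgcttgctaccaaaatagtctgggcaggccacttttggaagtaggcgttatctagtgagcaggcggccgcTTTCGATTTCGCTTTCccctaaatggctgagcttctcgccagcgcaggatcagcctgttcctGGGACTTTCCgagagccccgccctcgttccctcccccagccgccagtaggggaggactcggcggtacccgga
TAP2: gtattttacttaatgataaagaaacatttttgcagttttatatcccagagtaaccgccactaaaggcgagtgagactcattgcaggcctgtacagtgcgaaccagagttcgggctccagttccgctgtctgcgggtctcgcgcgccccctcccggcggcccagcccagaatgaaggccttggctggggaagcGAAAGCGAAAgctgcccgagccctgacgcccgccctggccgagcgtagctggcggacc
HLA-B: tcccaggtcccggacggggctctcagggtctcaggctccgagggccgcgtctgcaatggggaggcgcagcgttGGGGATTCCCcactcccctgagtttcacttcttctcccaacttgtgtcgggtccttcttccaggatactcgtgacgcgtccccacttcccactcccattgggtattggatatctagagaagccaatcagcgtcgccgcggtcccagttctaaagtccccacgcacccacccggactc
B2M: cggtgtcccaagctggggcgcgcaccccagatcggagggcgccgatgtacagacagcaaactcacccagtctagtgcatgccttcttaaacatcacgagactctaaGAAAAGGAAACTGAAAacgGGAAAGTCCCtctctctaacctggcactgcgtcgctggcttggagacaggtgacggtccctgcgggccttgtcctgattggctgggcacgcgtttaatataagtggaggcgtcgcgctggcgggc
The first capitals in TAP1 are the ISRE matches, which begin 134 and 128 bases before the start, and the second are the NF-kappaB match at 72 bases. TAP2 holds an ISRE match at 58 bases, HLA-B an NF-kappaB match at 177 bases, and B2M ISRE matches at 144 and 138 bases followed by an NF-kappaB match at 125 bases. In windows of 250 bases before to 50 after the start, the ISRE core occurred in 8 of 14 class I genes with a sequence (57.1%), in 17 of 25 interferon-stimulated genes (68%), in 996 of 27305 promoters of all genes (3.65%) and in 2 of 87 genes at least 2-fold lower in line II (2.3%). The NF-kappaB core occurred in 5 of the 14 (35.7%) and in 5.67% of all promoters. Of the 8 class I genes with the ISRE core 7 fell, and of the 6 without it 5 fell. A match is a string of letters and not a shown binding site.

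PSMB9, an immunoproteasome subunit, had the largest fall of the list. It read 5.13, 4.93 and 5.09 in line II, against 6.29, 6.27 and 6.18 in Mock (-1.20, SE 0.08, adjusted p = 2.35e-07), with 5.39 in Parental cells. ERAP2 read 7.0, 7.09 and 7.43 in line II, against 7.81, 7.98 and 7.77 in Mock (-0.68, SE 0.10, adjusted p = 0.000268). TAP2 read 5.04, 5.30 and 5.14 in line II, against 5.99, 5.64 and 5.79 in Mock (-0.65, SE 0.09, adjusted p = 0.000171), and changed by -0.19 as the mean of its probe sets. No line II array of these genes reached a Mock array. HLA-B, a class I heavy chain, read 9.27, 9.26 and 9.39 in line II, against 9.79, 9.76 and 9.78 in Mock (-0.47, SE 0.06, adjusted p = 6.37e-05). TAP1 read 6.80, 6.67 and 6.79 in line II, against 7.08, 6.95 and 7.01 in Mock (-0.26, SE 0.07, adjusted p = 0.0182). The TAP1 call was lost after quantile normalization (-0.15, adjusted p = 0.153), without Mock replicate 1 (adjusted p = 0.0601) and without line II replicate 2 (adjusted p = 0.0752). B2M read 11.50, 11.74 and 11.80 in line II, against 11.77, 11.78 and 11.76 in Mock, and overlapped (-0.09, adjusted p = 0.402). HLA-B, HLA-C, TAP1, TAPBP, ERAP1 and B2M were chosen after their values were seen. The HLA heavy chains are near-identical in sequence, so their probe sets may share signal.

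Interferon-stimulated genes were also lower more often than higher. Of 32 measured, 15 fell and 1 rose, with a median of -0.16, beside 15.1% and 11% of all genes. Of the 32, 21 are in the brighter 50% of genes, where 26.8% fell and 9.36% rose. Against line I, 12 of the 32 were lower and 1 higher, beside 4.66% and 2.48% of all genes. IFITM1, a membrane protein that restricts virus entry, read 9.35, 9.45 and 9.50 in line II, against 10.14, 10.08 and 10.09 in Mock (-0.67, SE 0.06, adjusted p = 2.38e-06). OAS3, an oligoadenylate synthetase, read 6.34, 6.27 and 6.28 in line II, against 6.69, 6.83 and 7.26 in Mock (-0.63, SE 0.11, adjusted p = 0.00137). IFIT3 read 6.41, 6.67 and 6.76 in line II, against 7.13, 7.24 and 7.11 in Mock (-0.55, SE 0.09, adjusted p = 0.000696). Line II lay below Mock on every array for all 3, and IFIT3 changed by -0.34 as the mean of its probe sets. MX2 was the member that rose, by 0.49 (adjusted p = 0.00896). Parental means of 9.68 for IFITM1 and 6.41 for OAS3 lay between the line II and Mock means, and that of IFIT3 (7.28) above both. CMPK2, a mitochondrial nucleotide kinase induced by interferon and chosen after its values were seen, changed by -1.83 (adjusted p = 2.74e-09). Of 18 NF-kappaB subunits, regulators and targets, 5 fell and 1 rose, with NFKB2 at -0.55 (adjusted p = 0.00022), with -0.26 as the mean of its probe sets. The falls were 3 without Mock replicate 3 and 2 after quantile normalization.

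**Figure D5:**
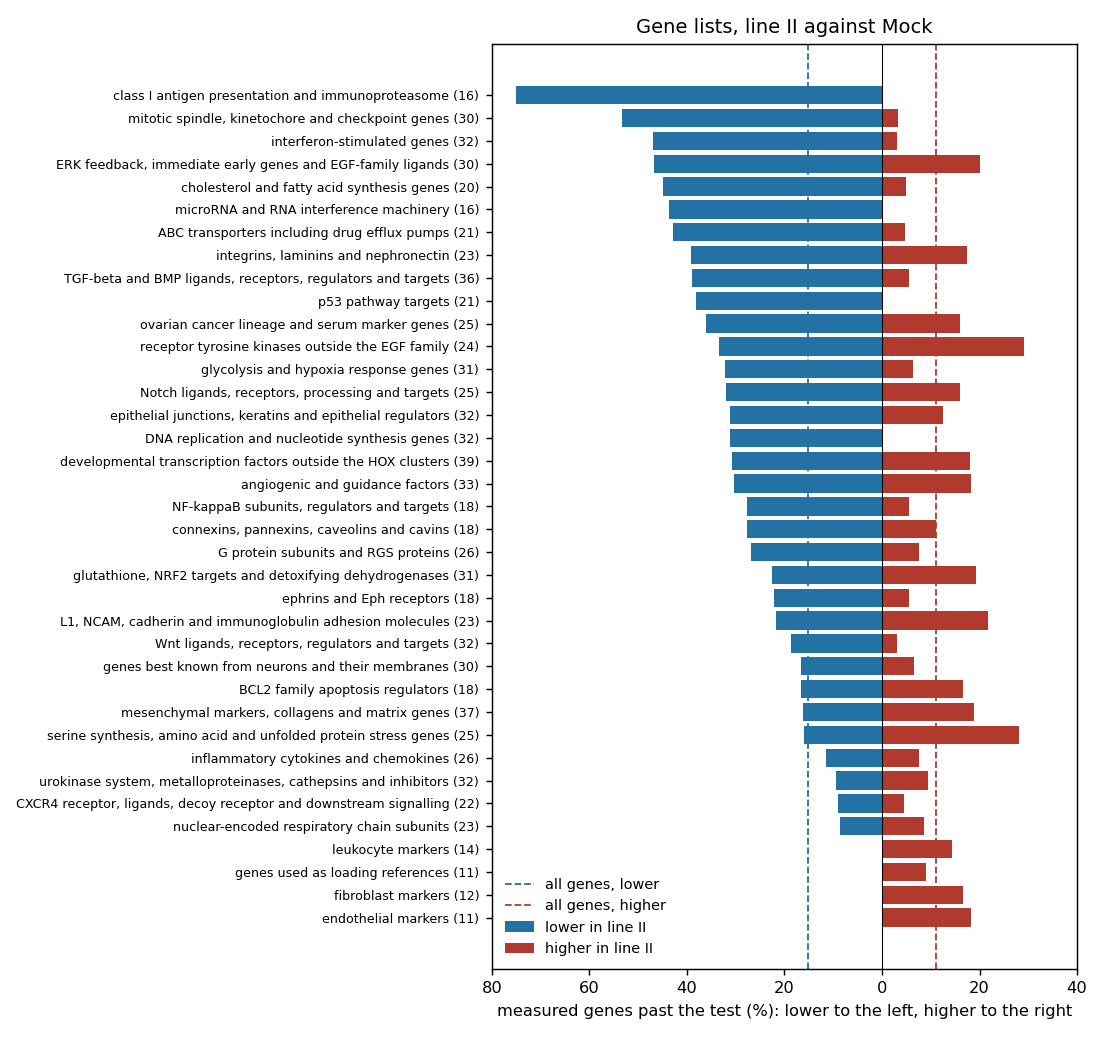
Share of the measured genes of each list (number in brackets) that were lower in line II than in Mock at a limma adjusted p under 0.05, drawn to the left of 0, and higher, drawn to the right, in percent. Dashed lines are the shares over all genes, 15.1% lower and 11% higher. The class I list has 12 of 16 genes lower and the mitotic list 16 of 30.

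Feedback regulators and early targets of ERK signalling fell more often than they rose, with 14 of 30 lower, 6 higher and a median of -0.23. After quantile normalization 10 were lower and 7 higher. Over all genes 15.1% fell and 11% rose. In the brighter 50% of genes, which holds 26 of the 30, 26.8% fell and 9.36% rose. SPRY2, a feedback inhibitor of receptor tyrosine kinase signalling, read 7.78, 7.90 and 7.93 in line II, against 8.95, 9.05 and 8.94 in Mock (-1.11, SE 0.06, adjusted p = 6.06e-08). Line II also lay below line I, by -0.65 (adjusted p = 3.97e-05). DUSP5, DUSP4 and DUSP6, phosphatases that inactivate MAP kinases, changed by -0.57, -0.50 and -0.42, and SPRY1, chosen after its values were seen, by -0.56 (adjusted p = 4.69e-05). Members that rose included a receptor and ligands of the EGF family, with ERBB3 up by 0.70 (adjusted p = 0.00156), TGFA by 0.66 (adjusted p = 4.17e-05) and BTC by 0.47. As the mean of their probe sets ERBB3 changed by 0.34 and TGFA by 0.32. Of 24 other receptor tyrosine kinases, 8 fell, led by FGFR3 at -0.92 (adjusted p = 1.44e-05) and ALK at -0.88 (-0.53 as the mean of its probe sets), and 7 rose, led by KIT. KIT, the stem cell factor receptor, read 4.30, 4.41 and 4.45 in line II, against 3.76, 3.33 and 3.63 in Mock (0.81, adjusted p = 0.000181), near the array medians, and 6.54 in Parental cells. Without line II replicate 1, 3 of the 24 rose. The brighter 50% of genes holds 11 of the 24.

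Receptors and regulators of TGF-beta and Wnt signalling included several falls. SKIL, a repressor of SMAD transcription, read 6.09, 6.33 and 6.28 in line II, against 7.76, 7.87 and 7.91 in Mock (-1.61, SE 0.08, adjusted p = 1.99e-08), and changed by -0.59 as the mean of its probe sets. TGFBR2, the ligand-binding TGF-beta receptor, read 8.56, 8.35 and 8.53 in line II, against 9.31, 9.47 and 9.48 in Mock (-0.94, SE 0.08, adjusted p = 1.7e-06), and line I averaged 9.16. FZD1, a Wnt receptor, read 4.62, 5.25 and 4.80 in line II, against 6.43, 6.71 and 6.58 in Mock (-1.69, SE 0.15, adjusted p = 2.9e-06), and -0.72 as the mean of its probe sets. Each of these was lower on every line II array than on any Mock array. Of 36 TGF-beta and BMP genes 14 fell and 2 rose, and of 32 Wnt genes 6 fell and 1 rose, with medians of -0.14 and -0.01. Over all genes 15.1% fell and 11% rose, and in the brighter 50% of genes 26.8% fell. That brighter part holds 23 of the TGF-beta and BMP genes and 17 of the Wnt genes. The Wnt count of falls is thus near the background. Of 25 Notch genes 8 fell, among them NOTCH2 by 0.55 and its ligand JAG1 by 0.43, and 4 rose, among them the coactivator MAML2 by 0.83. The Notch falls were 5 without Mock replicate 3, the rises were 2 without Mock replicate 1, and after quantile normalization 4 fell and 4 rose. As the mean of their probe sets JAG1 changed by -0.21 and MAML2 by 0.47. The growth and guidance factors PDGFC, with 4.81, 4.86 and 4.80 in line II, against 6.37, 6.27 and 6.37 in Mock, and SEMA3C, with 7.16, 7.40 and 7.64 in line II, against 8.83, 8.77 and 8.76 in Mock, changed by -1.51 (adjusted p = 4.38e-09) and -1.39 (adjusted p = 3.31e-07), and Parental cells were above both groups, at 8.64 and 9.53. Of 33 angiogenic and guidance factors, 10 fell and 6 rose. The falls were 6 without Mock replicate 1, and 1 gene rose without line II replicate 2.

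Mitotic genes were slightly lower in line II than in Mock and higher than in line I. Of 30 measured spindle, kinetochore and checkpoint genes, 16 fell and 1 rose against Mock, with a median of -0.28, beside 15.1% and 11% of all genes. All 30 are among the brighter 50% of genes, where 26.8% fell and 9.36% rose. After quantile normalization 13 of the 30 fell and 1 rose. Against line I, 23 were higher and 0 lower, beside 2.48% and 4.66% of all genes. ANLN, a cytokinesis scaffold, read 9.21, 9.39 and 9.62 in line II, against 9.90, 9.95 and 9.88 in Mock (-0.50, adjusted p = 0.000928), and CENPE, a kinetochore motor, changed by -0.49 (adjusted p = 0.000412) and was 0.36 above line I. PTTG1, which encodes securin, was the member that rose, with 11.07, 10.99 and 11.08 in line II, against 10.58, 10.67 and 10.63 in Mock (0.42, SE 0.05, adjusted p = 0.000117), and it was 0.48 above line I (adjusted p = 0.000121) and at the Parental mean of 11.07. Of 32 replication and nucleotide synthesis genes, all in the brighter 50%, 10 fell and 0 rose, led by UHRF1 at -0.40. That count was 3 after quantile normalization, 19 after centring and 5 without line II replicate 2, so it depends on the scaling and on 1 array.

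Of 21 p53 targets 8 fell and 0 rose, led by RRM2B, a ribonucleotide reductase subunit, at -0.80 (adjusted p = 0.0015). Of 20 cholesterol and fatty acid synthesis genes 9 fell and 1 rose, with SCD, a fatty acid desaturase, at -0.69 (adjusted p = 6.34e-05) and ELOVL6, an elongase, at -0.62. Of 31 glycolysis and hypoxia response genes 10 fell, among them PDK1 by 0.56 (-0.18 with adjusted p = 0.0652 as the mean of its probe sets), and 2 rose, led by NDRG1 at 0.77 (adjusted p = 1.51e-05). Of 16 RNA interference genes 7 fell and 0 rose, among them the microRNA processing enzyme DROSHA at -0.43 (adjusted p = 0.00151) and TNRC6A, a partner of Argonaute proteins, at -0.42 (adjusted p = 0.00643). The TNRC6A call was lost as the mean of its probe sets (-0.09, adjusted p = 0.205). Of 21 ABC transporters 9 fell and 1 rose, with the efflux pump ABCB1 at -0.95 (adjusted p = 5.36e-05) and its relative ABCC1 at -0.47. ABCB1 was dim, with 3.01, 2.72 and 2.71 in line II, against 3.71, 3.61 and 3.99 in Mock, all below the array medians, and changed by -0.59 as the mean of its probe sets. Of 31 glutathione and NRF2 genes 7 fell and 6 rose, of 26 G protein subunits and RGS proteins 7 fell and 2 rose, with RGS2 at -0.94 (adjusted p = 4.99e-06), and of 18 ephrins and Eph receptors 4 fell and 1 rose. After quantile normalization the falls and rises were 5 and 1 for p53 targets, 5 and 1 for lipid synthesis, 6 and 4 for glycolysis and hypoxia, 4 and 2 for RNA interference, 6 and 1 for ABC transporters, 7 and 9 for glutathione and NRF2, 5 and 3 for G protein genes and 1 and 2 for ephrins. The ephrin falls were 1 without Mock replicate 2. All of the p53 and lipid synthesis genes, 27 of the glycolysis and hypoxia genes and 14 of the RNA interference genes are in the brighter 50% of genes, where 26.8% fell. Of 23 respiratory chain subunits, 2 fell and 2 rose. Over all genes 15.1% fell and 11% rose.

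Of 32 junction, keratin and epithelial regulator genes 10 fell and 4 rose, with a median of -0.02. As 24 of them are in the brighter 50% of genes, where 26.8% fell, this count is near the background. After centring 12 fell and 0 rose, and against line I 11 were lower and 0 higher, beside 4.66% and 2.48% of all genes. Without Mock replicate 1, 1 of them rose. CDH1, E-cadherin, read 7.14, 7.25 and 7.23 in line II, against 7.91, 7.82 and 7.98 in Mock (-0.70, SE 0.07, adjusted p = 9.4e-06), and line I averaged 8.18 and Parental cells 8.76. MSLN, mesothelin, read 4.09, 4.25 and 4.64 in line II, against 5.42, 5.57 and 5.76 in Mock (-1.26, SE 0.13, adjusted p = 1.28e-05). The groups were apart for both genes. KRT7 changed by -1.00, but by 0.05 without probe sets named _x_at or _s_at. Over 25 ovarian cancer lineage and serum markers, 9 fell and 4 rose, and the sum of log2 values was 197.8 to 199.3 in line II, 204.9 to 205.3 in line I, 202.5 to 204.0 in Mock and 201.9 to 202.4 in Parental cells. The lineage factor PAX8 changed by 0.05 (adjusted p = 0.57), WT1 by -0.28 (adjusted p = 0.0217, but -0.07 with 0.384 as the mean of its probe sets) and the epithelial adhesion molecule EPCAM by 0.09; these 3 were chosen after their values were seen. Sums for leukocyte markers were 58.8 to 59.7 in line II and 57.2 to 58.7 in Mock over 14 genes, for endothelial markers 44.4 to 45.5 and 43.5 to 44.7 over 11, and for fibroblast markers 50.7 to 52.4 and 50.7 to 51.0 over 12, with 2 genes rising in each list and 0 falling. The leukocyte rises were 0 without Mock replicate 2 and the fibroblast rises 0 without Mock replicate 1. In these 3 lists 7, 6 and 6 genes lay below 4.25 in line II, and 9, 7 and 6 in Mock. Among 11 loading references 1 rose, HPRT1 by 0.36. ACTB and GAPDH, chosen after their values were seen, changed by -0.02 and -0.01.

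Families are groups of genes whose symbols start alike, and some hold antisense transcripts or regulators. Of 502 zinc finger genes, 107 fell and 33 rose, led by ZNF462 at -1.46 (adjusted p = 1.62e-06; -0.85 as the mean of its probe sets). The counts were 85 and 29 after quantile normalization and 143 and 9 after centring, and 12 rose without line II replicate 2. Zinc finger genes divide evenly, with 251 in the dimmer and 251 in the brighter 50% of genes. The dimmer 50% of all genes had 3.43% falls and 12.7% rises, and the brighter 50% had 26.8% falls and 9.36% rises. Of 840 long intergenic non-coding RNAs, 103 rose and 12 fell, 772 of them in the dimmer 50%. That family had 49 rises and 18 falls after quantile normalization, 40 and 32 after centring, and 47 rises without Mock replicate 2. Of 97 potassium channels 18 rose and 3 fell, with 88 in the dimmer 50%, and 4 rose without line II replicate 1. Of 39 sodium and calcium channels 15 rose and 0 fell, with 32 in the dimmer 50%, and the rises were 9 after quantile normalization, 8 after centring and 6 without Mock replicate 2. Of 376 solute carriers 51 rose, among them the sodium/proton exchanger SLC9A2 by 1.63 (adjusted p = 1.07e-06; 0.87 as the mean of its probe sets), and 50 fell. The carriers had 51 rises and 29 falls after quantile normalization, 28 and 72 after centring, and 32 rises without Mock replicate 2. Of 75 heat shock genes 19 fell and 10 rose, with HSPB3, a small heat shock protein of muscle, at -1.84 (adjusted p = 1.41e-08), but 11 fell and 13 rose after quantile normalization. The dim families and the array spread move together, and the part of the spread in these counts was not tested.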

How the data were processed

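RNA levels were measured on 12 arrays in 4 groups of 3, and the authors deposited RMA log2 values by probe set, computed under R 2.6.0 per the submitters' processing notes. For the chip definition file and for filters, the sources used here give nothing, and no further normalization was applied. Of 54675 probe sets, 62 are controls, 41091 carry 1 gene symbol in the platform annotation, 1801 several and 11721 none. By Entrez number 41037 matched the gene name table, and 0 symbols changed.

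Each of 19775 genes was represented by the brightest of its single-symbol probe sets. The test was limma 3.58.1 under R 4.3.3, with group means fitted to the 12 arrays by lmFit and moderated by eBayes (residual degrees of freedom 8, prior 5.19), with Benjamini-Hochberg adjustment over all genes and a threshold of 0.05. A gene rose or fell where it passed, and arrays not overlapping were counted separately. The script was tested on simulated data.

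The members, 37 gene lists and 38 symbol families were chosen with earlier results of these data known. Of the list genes 879 were measured. Lists are described by counts and medians, with no test of the list. Named genes are CXCR4 and 7 others, the 15 largest changes each way without overlap, the 8 each way furthest from line I among genes past both tests, and up to 3 each way per list and family, 358 in all. A further 28 were chosen after their values were seen, and those given in the text are marked so. Alternatives changed the scaling, the probe sets, the level filter, the variance model, the groups fitted, the replicate block, the control group and each array. Promoters came from RefSeq (GRCh38.p14). Figures used Python 3.11.15, pandas 2.3.3, numpy 2.4.6 and matplotlib 3.10.9.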

Additional observations from a re-analysis of the deposited data

Results flagged for a closer look

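Several genes differed between the knockdown lines by at least 2-fold, and the test of the difference itself passed for each. All values are line II minus line I on the log2 scale, and each line has 3 arrays. Genes of secreted proteins were lower in line II, with SLPI at -1.67, CXCL8 at -1.63, CXCL1 at -1.58, CXCL2 at -1.05, PLAU at -1.48, MMP1 at -1.31 and CCN3 at -1.24. SELENOP, the selenium transport protein, differed by -1.84, and its line II value against Mock was -0.82 on this probe set and -0.13 (limma adjusted p = 0.437) without probe sets named _x_at or _s_at. CXCL2 differed from Mock by -0.44 in line II, and by 0.34 without those probe sets.

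Further genes lower in line II were LEMD1 at -1.69, SCEL at -1.62, EMP1 at -1.38, PHLDA1 at -1.32 and FAM110C at -1.31. Among genes with large falls against Mock, KCTD12 differed from line I by -1.32, THSD7A by -1.21, SOX9 by -1.06 and TGM2 by -1.01. The cation channel TRPC6, another of these and chosen after its values were seen, differed by -1.06. The potassium channel KCNJ2 differed by -1.17 and the progestin receptor PAQR5 by -1.04. LPAR3 was higher in line II by 1.08. The lines differ in hairpin or clone or both, which cannot be told apart.

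Probe sets outside the gene comparison carried changes too. Among 13522 probe sets with no gene symbol or with several, 938 were higher and 524 lower in line II than in Mock, or 10.8% together. Of these, 13 were at least 2-fold lower and 8 at least 2-fold higher.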

How the results depend on the processing

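Of 385 named genes other than CXCR4, 248 kept direction and call under every alternative that gave a value. The count of 5168 changed genes was 3353 against Parental in place of Mock, 7985 over all single-symbol probe sets, 3027 when only the groups compared were fitted, and 3667 to 6070 without each array. The 152 genes changed at least 2-fold were 250 over all single-symbol probe sets, 101 with the mean of probe sets, 78 with a mean log2 of at least 6, and 150 to 159 without each array. The share of falls among them, 75.7%, was 84.1% against Parental, 66.7% with a mean log2 of at least 6, and 75.3 to 77.7% without each array. Among all calls the share of 57.8% was 45.4% after quantile normalization and 78.7% after centring. The 1413 genes that differed between lines II and I were 735 when only those groups were fitted, 865 without probe sets named _x_at or _s_at, and 770 to 1799 without each array. CXCR4 ranged from -2.02 to -1.85 without each array. Whether the replicate numbers pair the arrays is not known. Deviations of same-numbered line II and Mock arrays correlated at 0.098, -0.068 and -0.013. Those of differently numbered arrays correlated at -0.228 to 0.234, and such values cannot settle how the arrays were paired. With a replicate block the counts were 5013, 152 and 1215, and CXCR4 stood at -1.96.

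Without probe sets named _x_at or _s_at, another probe set stands for the gene and some named genes changed sign: ADGRL2 0.21, ARHGAP44 0.11, BOK 0.0378, CACNB1 -0.0217, COL4A5 0.14, COL6A1 0.30, CXCL2 0.34, FOXN3 -0.12, HOXB8 0.0885, HSPB8 0.0489, ITGB4 0.37, KCNK9 -0.0502, KRT7 0.0506, LGR4 0.0148, PTPRA 0.13, PTPRS 0.10 and SMAD6 0.0645. With the mean of probe sets BCL2L13 came to 0.0601 and COL1A1 to -0.11. For other changes of call the cause was not tested. For falls that end below 4.25, the lowest array median, the fold change may not give the size of the change in RNA, which was not tested.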
